A study of Mus musculus with 6 samples.

Results

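The smooth muscle contractile genes are a set of 10 genes for the thin filaments, myosin and calponins with which smooth muscle cells shorten. They are Acta2, Tagln, Myl9, Cnn1, Cnn2, Cnn3, Tpm1, Tpm2, Mylk and Myh11. They were taken as the probe sets whose only platform gene symbol is one of these 10, which gave 26 of the 45101 probe sets on the array. A probe set was tested if its mean intensity reached 50 in at least 1 group, the limit that the series text names, and 17 of the 26 did. These 17 cover 8 genes out of 12070 genes tested in all. Cnn1 and Myh11 had no probe set above that limit.

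RNA was measured on 6 Affymetrix mouse arrays. The TRAP group held 3 immunoprecipitates from cortex of line ES691, a mouse carrying an S100a10 bacterial artificial chromosome, in which affinity purification (translating ribosome affinity purification, TRAP) recovers ribosomes of S100a10-expressing cells with their mRNA. The unbound group held 3 samples of whole cortex RNA from the same line, called input in sample titles and flow-through in the series text. All 6 samples were untreated and came from mice backcrossed onto C57BL/6 from FVB for 3-5 generations, and 15 ng of RNA was amplified for each. Labels call the samples biological replicates without an age, a sex or a number of animals, and the p-values here rest on the spread of 3 samples a group, part of which may be technical. The title names pyramidal cells as the target, while the series text warns that non-neuronal cells carry the transgene too. It advises a published selection of probe sets, which was not used here. Of 11 pyramidal neuron markers tested, 4 were higher and 5 lower in TRAP RNA, beside 23.2% and 45.6% of all genes. With each array centred on its median 4 were higher and 3 lower, beside 37.0% and 30.2% of all genes. S100a10 itself, the driver gene, was 5.86-fold higher in TRAP RNA, at 14128 ± 1095 intensity units against 2430 ± 451 in unbound RNA (SD, n = 3 each; limma adjusted p = 8.4e-05).

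In smooth muscle, calcium binds calmodulin, which activates myosin light chain kinase. The kinase phosphorylates the regulatory light chain of myosin, and the phosphorylated myosin pulls on actin filaments that carry tropomyosin, calponin and transgelin. Serum response factor drives many of these genes through a DNA element called the CArG box. In brain, the muscle cells of arteries and arterioles carry these proteins at high level. Pericytes, fibroblasts of the brain's coverings and other non-muscle cells make some of them, among them the calponins Cnn2 and Cnn3, as stress fibre proteins.

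The contractile genes did not all move the same way. Of the 8 genes tested, 7 were higher and 1, Mylk, was lower in TRAP RNA, each represented by its probe set with the highest mean. Over all genes tested, 68.8% were called, 23.2% higher and 45.6% lower, by the same test (limma, Benjamini-Hochberg adjusted p under 0.05). Cnn2, Myl9 and Tagln were at least 8-fold higher and Tpm2 at least 4-fold, limits that 1.67% and 3.34% of all genes reached. Acta2, Tpm1 and Cnn3 were higher by less than 2-fold, while of all genes 7.29% passed 2-fold upward and 13.3% passed it downward. The median log2 fold change was 1.68 over the 8 genes and -0.21 over all genes. The TRAP and unbound arrays did not overlap for any of the 8, with 7 higher and 1 lower, against 25.9% and 49.6% of all genes. Counted by probe set, 14 of 17 were higher and 2 lower, while 20.6% and 47.7% of all probe sets were (68.3% in either direction). In these bulk samples fewer cells of a type and less RNA per cell cannot be told apart.

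The scaling of the arrays moved the counts over all genes but not those over the member genes. Array medians were 31.4 to 31.8 on TRAP and 42.4 to 43.1 on unbound arrays. With each array centred on its own median, 37.0% of all genes were higher and 30.2% lower, and the median over all genes was 0.06 in place of -0.21. After quantile normalisation these shares were 33.8% and 32.8%. The members stayed at 7 higher and 1 lower under both scalings. Tested against a 2-fold change (limma treat), 4 members were higher and 0 lower, against 4.60% and 6.74% of all genes, with 0 members lower at an unadjusted p under 0.05.

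**Figure D1:**
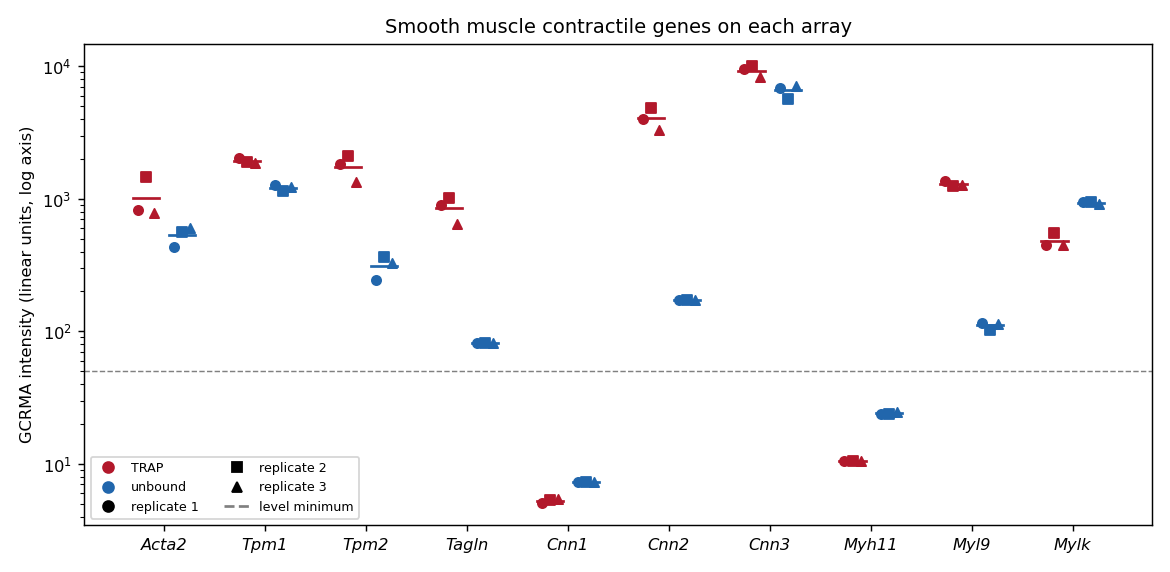
GCRMA intensity (linear units, log axis) of the brightest probe set of each of the 10 genes on each array, TRAP in red and unbound in blue, with a bar at the group mean and the level minimum of 50 as a dashed line. Tagln, Cnn2 and Myl9 lie far apart between groups, Mylk is lower in TRAP RNA, and Cnn1 and Myh11 lie under 50 on all 6 arrays.

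Start-site sequence was at hand for 8 of the 10 genes, in RefSeq's GRCm38.p6 windows of 250 bases before and 50 after a gene's start (all but Tagln and Myh11). The windows of Cnn2 and Myl9, the genes with the highest fold changes here, are shown because they hold a CArG box, and that of Acta2 because it holds CArG-like sequences. CArG boxes, and CArG-like sequences with a lone C or G in the A/T core, were searched, and each form reads as the same class on both strands. Matches are in capitals.

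Cnn2: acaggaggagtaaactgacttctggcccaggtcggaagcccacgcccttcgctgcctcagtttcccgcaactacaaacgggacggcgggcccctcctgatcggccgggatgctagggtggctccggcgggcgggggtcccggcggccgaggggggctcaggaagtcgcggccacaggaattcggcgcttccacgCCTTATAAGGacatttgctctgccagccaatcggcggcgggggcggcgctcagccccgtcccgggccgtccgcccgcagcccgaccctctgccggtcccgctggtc
Myl9: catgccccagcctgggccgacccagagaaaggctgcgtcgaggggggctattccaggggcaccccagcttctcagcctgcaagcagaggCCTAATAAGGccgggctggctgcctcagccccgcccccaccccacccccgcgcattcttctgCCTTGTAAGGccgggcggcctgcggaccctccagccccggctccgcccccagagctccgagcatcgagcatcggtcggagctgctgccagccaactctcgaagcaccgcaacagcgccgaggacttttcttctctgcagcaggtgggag
Acta2: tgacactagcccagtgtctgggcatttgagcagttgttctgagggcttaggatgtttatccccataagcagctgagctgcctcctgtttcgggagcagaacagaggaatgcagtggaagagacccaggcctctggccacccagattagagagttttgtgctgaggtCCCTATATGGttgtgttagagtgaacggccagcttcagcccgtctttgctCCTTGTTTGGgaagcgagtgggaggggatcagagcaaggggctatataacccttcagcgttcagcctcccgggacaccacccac

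The Cnn2 window is chr10:79988350-79988649 on the plus strand, with its CArG box starting 56 bases before the start. The Myl9 window is chr2:156775214-156775513 on the plus strand, with the box starting 161 bases before the start and a CArG-like sequence at 99. The Acta2 window is chr19:34255324-34255623 on the minus strand, with CArG-like sequences starting 84 and 34 bases before the start. Of the 8 windows 2 held a CArG box and 2 a CArG-like sequence, against 1.63% and 8.50% of 32851 windows in the table. These matches describe the letters of the windows and not binding.

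Among thin filament genes, Tagln encodes transgelin, an actin-binding protein that marks early smooth muscle. It measured 901, 1022 and 648 on TRAP arrays 1 to 3, against 81.2 on each of the 3 unbound arrays. The lowest TRAP value was 7.97 times the unbound value, so the groups lie far apart. The log2 fold change was 3.37 (SE 0.18, limma adjusted p = 6.1e-05), a 10.4-fold difference. The unbound value was exactly repeated on the 3 arrays, which leaves the spread of unbound samples unmeasured for this gene.

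Tpm2, which encodes beta tropomyosin, was higher at each of its 3 tested probe sets. Its brightest probe set, 1419738_a_at, gave 1835, 2089 and 1329 on the TRAP arrays and 246, 367 and 327 on the unbound arrays. The log2 fold change was 2.48 (SE 0.23, limma adjusted p = 5.1e-04). The probe set 1425028_a_at gave a higher fold, with TRAP values of 1308, 1344 and 876 against 139, 167 and 160 unbound (7.46-fold). The probe set 1449577_x_at, whose suffix marks probes that can match other transcripts, gave 287 ± 49.0 against 139 ± 14.7 (SD, n = 3 each; 2.06-fold, adjusted p = 0.0029). All 3 were higher, and TRAP replicate 3 was the lowest TRAP array in each. A further probe set, 1419739_at, lay under 50 in both groups, at 34.0 in TRAP and 28.0 in unbound RNA.

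Tpm1, which encodes alpha tropomyosin and is spliced differently in muscle, brain and other cells, differed by a smaller factor. Its probe set 1423721_at gave 2042, 1892 and 1849 in TRAP RNA against 1270, 1139 and 1237 in unbound RNA. This was a 1.59-fold difference (log2 0.67, SE 0.06, limma adjusted p = 4.6e-04). The probe set 1423049_a_at had overlapping groups, with 1498, 1391 and 1321 against 1432, 1072 and 1183. It was not called (log2 0.20, SE 0.12, adjusted p = 0.20), but it was on centred arrays (log2 0.46, adjusted p = 0.0083), after quantile normalisation (log2 0.39, adjusted p = 0.018) and without unbound replicate 1 (log2 0.32, adjusted p = 0.030). The other probe sets of the gene stayed under 50, and one of them, 1456623_at, read 7.50 on each TRAP array against 46.8, 29.9 and 29.9 unbound. Which isoform each probe set measures was not annotated in the tables used here.

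Acta2 encodes alpha smooth muscle actin, the most used marker of smooth muscle and of contractile fibroblasts. It was 818, 1462 and 782 on the TRAP arrays and 436, 561 and 602 on the unbound arrays. TRAP replicate 2 stood well above the other TRAP arrays, and the lowest TRAP value was 1.30 times the highest unbound value. The log2 fold change was 0.89 (SE 0.29, 1.85-fold), with limma adjusted p = 0.043. Leaving out TRAP replicate 1 or 3 or any unbound replicate ended the call, with adjusted p from 0.051 to 0.12. Without TRAP replicate 2 the call held at a lower log2 fold change of 0.60 (adjusted p = 0.038). The value comes from 1416454_s_at, a type whose probes are shared by several transcripts, and the other 2 Acta2 probe sets read under 8 units in both groups.

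Other actins give the setting for that value. Acta1, the skeletal muscle actin, gave 503 in TRAP RNA against 544 in unbound RNA and was not called (log2 -0.13, adjusted p = 0.42). Actg2, the other smooth muscle actin, stayed under 50 in both groups at 29.5 in TRAP and 5.30 in unbound RNA. The part of probes shared between actins in the Acta2 value was not tested.

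Calponins bind actin and slow its sliding over myosin, and their 3 genes gave 3 different readings. Cnn2, the calponin of smooth muscle and many non-muscle cells, was 3977, 4878 and 3301 on the TRAP arrays against 172 on each unbound array. Its log2 fold change of 4.54 (SE 0.15, limma adjusted p = 1.2e-05) was the highest of the 8 genes tested, a 23.3-fold difference. The lowest TRAP value was 19.2 times the unbound value, which was again exactly repeated on 3 arrays.

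Cnn3, the calponin known from neurons and glia as well as muscle, was bright in both groups. Its probe set 1436836_x_at gave 9486, 10082 and 8303 in TRAP RNA against 6889, 5691 and 7143 in unbound RNA. The groups were close without overlapping, at 1.42-fold (log2 0.50, SE 0.12, limma adjusted p = 0.015). Each of the 6 tested Cnn3 probe sets was called higher, by 1.42-fold to 1.73-fold, and 5 of them are of the _x_at type. The probe set without such a suffix, 1426724_at, gave 1102 ± 180 against 764 ± 50.6 (SD, n = 3 each; 1.43-fold, adjusted p = 0.022). With the replicate number as a block, 1436836_x_at lost its call (adjusted p = 0.055), and 3 of the 6 stayed called. Leaving out TRAP replicate 1 also ended the call of 1436836_x_at (adjusted p = 0.054), and 1426724_at stayed called in 2 of the 6 fits that left out a replicate.

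Cnn1, the calponin restricted to differentiated smooth muscle, did not reach the level minimum. Its probe set gave 5.05, 5.30 and 5.40 in TRAP RNA against 7.30, 7.34 and 7.34 in unbound RNA. These are among the low values of the arrays, where the lower quartile over all probe sets was 8.60 to 8.85 in TRAP and 10.2 to 10.4 in unbound samples. An intensity at this level does not show that the transcript is absent.

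Myosin genes went in different directions. Myl9, which encodes the regulatory light chain found in smooth muscle and other contractile cells, was 1371, 1239 and 1278 in TRAP RNA against 115, 103 and 114 in unbound RNA. Replicates lay close together within each group, and the lowest TRAP value was 10.8 times the highest unbound value. The log2 fold change was 3.55 (SE 0.06, limma adjusted p = 1.8e-06), an 11.7-fold difference.

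Mylk, which encodes the kinase that phosphorylates this light chain, was lower. Its probe set 1425506_at gave 448, 550 and 448 in TRAP RNA against 943, 943 and 912 in unbound RNA. All TRAP arrays lay under all unbound arrays (log2 -0.96, SE 0.09, limma adjusted p = 5.5e-04). The probe set 1425505_at was lower as well, at 117, 113 and 117 against 211, 171 and 165 (log2 -0.64, adjusted p = 0.0036). The direction of 1425506_at held under both other scalings, at log2 -0.70 after centring and -0.73 after quantile normalisation. Exact repeats occur in both groups of 1425506_at and in the TRAP group of 1425505_at, which makes their spread look smaller. A further Mylk probe set, 1425504_at, lay under 50 in both groups, at 14.7 in TRAP and 13.1 in unbound RNA. The gene gives a long and a short kinase from separate start sites, and which form the probe sets measure was not annotated in the tables used here.

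Myh11, the heavy chain of smooth muscle myosin and its most specific marker, stayed under the level minimum in both groups. Its brighter probe set, 1448962_at, read 10.4 on each TRAP array and 23.6, 23.6 and 24.8 on the unbound arrays. The other, 1418122_at, read 8.33, 8.60 and 9.20 in TRAP RNA against 7.77 on each unbound array. With no filter on low values, Myh11 was called lower by 1448962_at, at log2 -1.20 (limma adjusted p = 1.1e-06). In the same fit 1418122_at was called higher, so the Myh11 probe sets went in opposite directions. Cnn1 was called lower at log2 -0.48 (adjusted p = 7.1e-05). No value of either gene was above 24.8.

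**Figure D2:**
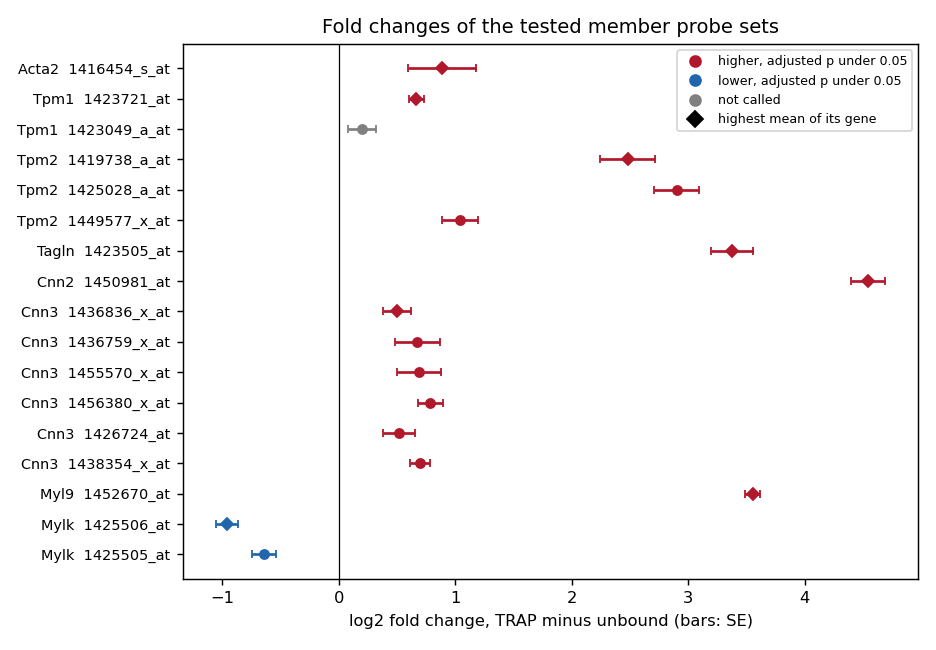
Log2 fold change (TRAP minus unbound, with its SE) of the 17 tested probe sets of the contractile genes, diamonds marking the probe set with the highest mean of each gene. Probe sets of 1 gene lie together for Cnn3 and Mylk and apart for Tpm1 and Tpm2, and Cnn2, Myl9 and Tagln stand at the right.

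The 3 TRAP arrays did not give the members the same height. All 8 tested genes were under their TRAP mean on TRAP replicate 3, by a median of -0.22 on the log2 scale, and 6 of 8 were above it on TRAP replicate 2 (median 0.24). The summed intensity of the 8 probe sets was 20878, 23214 and 17937 on TRAP arrays 1 to 3 and 10152, 9058 and 10589 on the unbound arrays. The summed meningeal fibroblast list was 87629, 98849 and 93053 on the same TRAP arrays and 12392, 14997 and 16686 on the unbound ones. Replicate 2 was highest in both sums, while replicate 3 was lowest for the members and in between for the meningeal list. Single bright probe sets weigh heavily in such sums. Cnn3 was the largest value among the members on every array, at 9486, 10082 and 8303 on the TRAP and 6889, 5691 and 7143 on the unbound arrays. Ptgds was the largest of the meningeal list, at 31155, 32012 and 32768 on TRAP arrays 1 to 3.

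Markers of cells that carry contractile proteins were read on the same arrays. Of 20 meningeal fibroblast markers 19 were tested, with a median log2 fold change of 4.59. Of these 17 were higher and 1, Pdgfra, was lower, beside 23.2% and 45.6% of all genes. The Pdgfra call was lost under both other scalings. Foxd1, a forkhead factor, was 53.1-fold and the collagen gene Col1a2 37.7-fold higher, and Mgp and Lum, both matrix proteins, were 37.4-fold and 36.6-fold higher. Lum read 6.26 in unbound RNA, and with values under 50 raised to 50 its log2 fold change was 2.20 in place of 5.19. The pericyte and mural list, made without the members, had 7 of its 15 genes on the array tested, 4 higher and 1 lower, with a median of 1.73.

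Mural genes also went both ways. Ifitm1, an interferon-induced membrane protein, was 13.7-fold higher at 2090 ± 166 against 152 ± 5.80 (SD, n = 3 each), Vtn, vitronectin, 11.1-fold and the ATPase gene Atp13a5 5.85-fold higher (each limma adjusted p at most 1.3e-04). Atp13a5 read 25.8 on each unbound array, and its log2 fold change was 1.59 in place of 2.55 with values raised to 50. Rgs5, a regulator of G protein signalling known from pericytes and arterial muscle, was 4.66-fold lower at 209 ± 1.13 against 973 ± 10.3 (adjusted p = 4.4e-07). The receptor gene Pdgfrb was 3.31-fold higher at 720 ± 50.9 against 223 ± 62.8 (limma adjusted p = 0.0016). Cspg4 gave 51.5 in TRAP and 60.4 in unbound RNA and was not called. The 8 mural genes not tested stayed under 50 in both groups. Among them the potassium channel gene Kcnj8 read 8.67 in TRAP and 14.9 in unbound RNA, its partner Abcc9 5.17 and 48.2, and the receptor gene Notch3 12.8 and 28.0. The connexin gene Gja4 went the other way, at 33.8 in TRAP and 11.6 in unbound RNA. Higd1b and Art3 read 23.7 and 10.3 in TRAP against 44.2 and 14.4 in unbound RNA, and Anpep and Ndufa4l2 19.1 and 32.1 against 19.3 and 33.2. The summed list was 16001 to 16179 in TRAP and 12826 to 13299 in unbound RNA, most of it Rgs4, a gene also known from neurons (10894 against 11220, not called). The part of either cell type in the values of the members was not tested.

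Genes that bind or anchor the actin filament were mixed. Of 31 tested, 16 were higher and 11 lower (median log2 fold change 0.17), beside 23.2% and 45.6% of all genes. After centring 19 were higher and 9 lower, beside 37.0% and 30.2% of all genes. Csrp2, a LIM protein of smooth muscle, was 13.2-fold higher at 1463 ± 446 against 108 ± 16.6 (SD, n = 3 each; limma adjusted p = 1.6e-04). Cald1, the actin-binding protein caldesmon, was 6.82-fold, Tagln2, a transgelin of non-muscle cells, 5.37-fold and Tpm4, a tropomyosin of non-muscle cells, 4.41-fold higher. Lmod1, which nucleates actin filaments in smooth muscle, was 4.12-fold higher at 57.2 ± 0 against 14.5 ± 4.97. With values under 50 raised to 50 its log2 fold change was 0.19 in place of 2.04. Des and Smtn, for desmin and smoothelin of smooth muscle, stayed under 50, at 36.9 and 27.2 in TRAP against 19.1 and 8.10 in unbound RNA.

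Of 12 other myosin II genes tested, 3 were higher and 7 lower (median -0.69), beside 23.2% and 45.6% of all genes. After centring 4 were higher and 6 lower. Myl12a, a regulatory light chain of non-muscle myosin close in sequence to Myl9, was 6.15-fold higher at 10389 ± 1012 against 1691 ± 180 (SD, n = 3 each; limma adjusted p = 2.9e-05). Myh2, Myh7 and Myh3, heavy chains of striated muscle, were 7.03-fold, 4.10-fold and 2.75-fold lower. Myh2 read 18.7 on each TRAP array, and its log2 fold change was -1.39 in place of -2.81 with values raised to 50. The Myl6 probe set, for an essential light chain, was 3.40-fold lower at 56.9 ± 6.36 against 195 ± 35.5. How far probes for Myl9 and Myl12a pick up each other's transcript was not tested.

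In cyclic GMP signalling, which relaxes smooth muscle, Mrvi1, a target of cyclic GMP kinase at the calcium store, was 6.91-fold higher at 718 ± 28.4 against 104 ± 0.436 (SD, n = 3 each; limma adjusted p = 7.7e-07), and the phosphodiesterase gene Pde5a 1.99-fold higher. Ppp1r14a, an inhibitor of myosin phosphatase, was 7.50-fold lower at 117 ± 11.1 against 888 ± 207 (adjusted p = 1.2e-04). Gucy1a1, a subunit of the nitric oxide receptor, was 4.43-fold and Ppp1r12a, the targeting subunit of myosin phosphatase, 2.07-fold lower.

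Ion channels and receptors of smooth muscle were lower in 9 of 9 tested genes, against 45.6% of all genes, while 9 more lay under 50. After centring 7 of the 9 stayed lower by the test (median -0.72, against -0.98 as deposited). Ednrb, an endothelin receptor, gave 71.3 ± 46.2 against 671 ± 202 (SD, n = 3 each; 10.9-fold, limma adjusted p = 0.0061). Kcna5, a potassium channel gene, was 3.61-fold and the calcium channel genes Cacna1h and Cacnb2 3.38-fold and 1.97-fold lower. The adhesion gene Mcam was 8.50-fold and the channel gene Trpc6 1.71-fold lower, calls lost with values under 50 raised to 50. Both passed the limit of 50 only in unbound RNA, at 51.4 and 67.5, against 6.03 and 38.6 in TRAP RNA. Which cells the values of these channels and receptors come from was not tested. Kcnmb1, the channel subunit most typical of smooth muscle, read 5.67 in TRAP and 5.78 in unbound RNA.

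Regulators of contractile gene transcription included genes with folds as high as those of the members. Of 14 tested, 4 were higher and 5 lower (median -0.06), beside 23.2% and 45.6% of all genes. After centring 7 were higher and 2 lower (median 0.20), beside 37.0% and 30.2% of all genes. Tbx18, a T-box factor of mural cells and meninges, was 20.0-fold higher at 2091 ± 366 against 106 ± 25.1 (SD, n = 3 each; limma adjusted p = 4.9e-05). Klf4, a zinc finger factor that represses smooth muscle genes, was 19.1-fold higher (adjusted p = 6.4e-04), Prrx1, a mesenchymal homeobox factor, 4.72-fold and the Notch target Heyl 2.76-fold higher. Heyl read 34.2 in unbound RNA, and its log2 fold change was 0.91 in place of 1.47 with values raised to 50. Elk4, a cofactor of serum response factor, was 1.64-fold lower. Srf itself gave 1398 against 1413 and was not called (log2 -0.02, adjusted p = 0.65), though it was called higher after centring. Myocd, the coactivator specific to cardiac and smooth muscle, read 6.67 in TRAP and 9.17 in unbound RNA.

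**Figure D3:**
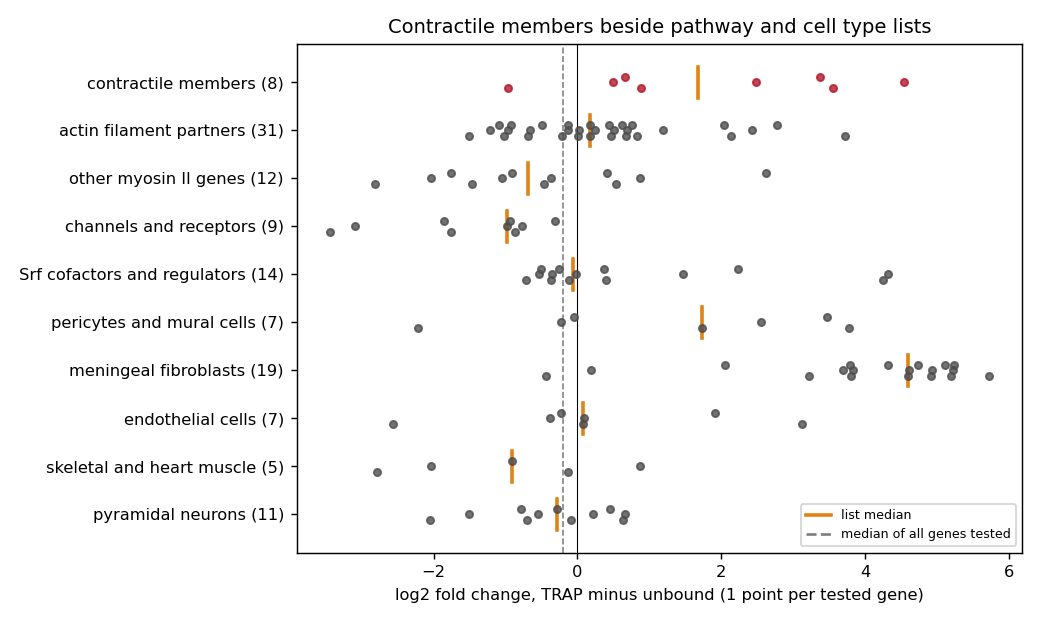
Log2 fold change (TRAP minus unbound) of each tested gene, 1 point per gene, for the 8 contractile members, 4 pathway lists and 5 cell type lists, with list medians in orange and the median of all genes dashed. The members run from -0.96 to 4.54, with a median of 1.68. The median of the pericyte and mural list (1.73) is the closest. That of the actin filament list (0.17) is lower and that of the meningeal list (4.59) higher.

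**Figure D4:**
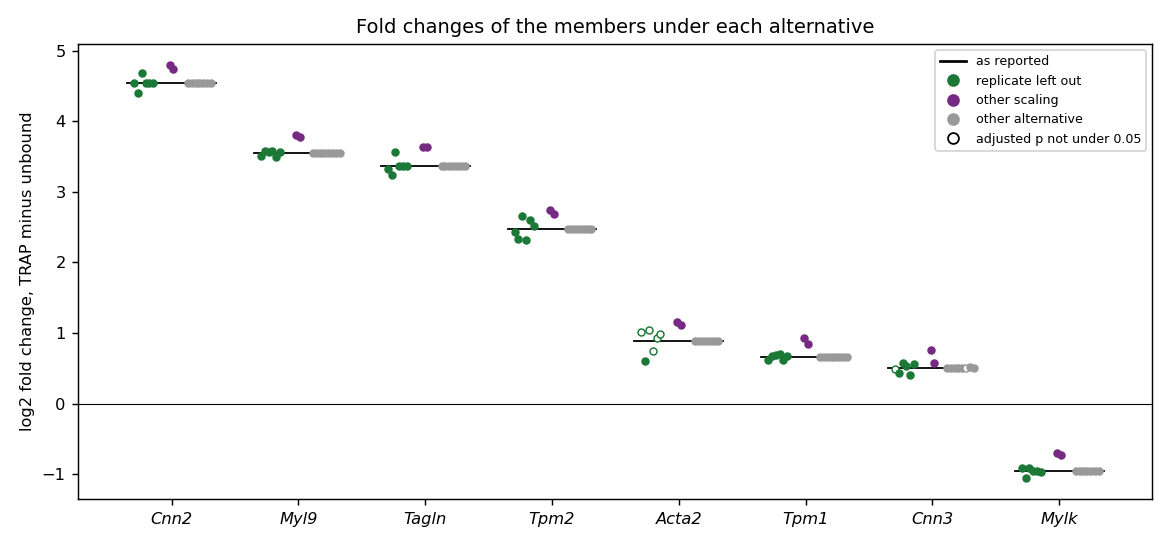
Log2 fold change (TRAP minus unbound) of the 8 tested members as reported and under each alternative except the test against a 2-fold change, open symbols marking an adjusted p not under 0.05. No alternative turned a sign, and open symbols occur for Acta2 and Cnn3.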

How the data were processed

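RNA of 3 TRAP and 3 unbound samples was hybridised to Affymetrix arrays after 2-cycle amplification of 15 ng, per the labels' protocols. The authors deposited linear intensities normalised with GCRMA, per the submitters' processing notes. The version, and whether both groups were normalised together, are not given in the sources used here. Exact repeats occur: 17.9% to 21.6% of tested probe sets had equal values on any pair of arrays of 1 group and 0% across groups, and 7 of the 17 tested member probe sets hold a repeat. Repeats make the spread look smaller than it is.

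From these values, 64 control probe sets were dropped and probe sets with a mean of at least 50 in at least 1 group were kept (22591). The series text can also be read as asking for 50 in both groups, which all 17 tested member probe sets met. Log2 intensities were fitted with limma 3.58.1 in R 4.3.3 (lmFit, eBayes), and p-values were Benjamini-Hochberg adjusted over the kept probe sets with a threshold of 0.05. Folds are 2 to the power of the log2 difference of group means. Levels are not comparable between probe sets. A gene was represented by its kept probe set with the highest mean. The platform annotation gave 34945 probe sets 1 symbol, 932 several and 9160 none. An exact permutation test of 3 against 3 arrays cannot go below p = 0.1. The scripts were tested on simulated data.

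Groups and replicate numbers came from the labels. Same-numbered TRAP and unbound arrays deviated together from their group means (correlations 0.496, 0.456 and 0.367), so the numbers were taken to pair the samples. The values given come from the fit by group without pairing, and the blocked value stands beside each member whose call it changes. With the block, limma adjusted p was larger for each tested member gene, for instance 3.8e-04 for Myl9, 7.7e-04 for Cnn2 and 0.0014 for Tagln. For the list genes named by the rule below, the block changed no call. Named genes were all members, up to 5 called genes a pathway list and up to 4 a cell list, by absolute log2 fold change among genes whose groups do not overlap. Other genes were named after their values were seen: those under 50, Acta1, Srf, Pdgfra, Ptgds, Pdgfrb, Cspg4, Rgs4, Esam, Sst, Npy, Cck, Trpc6, Tmem119 and Ttr. The counts of 1 pathway list are not reported here. The members and lists were chosen with earlier results of these data known. Alternatives covered the filter, scaling, unit of the fit, variance prior, block, probe set type, repeats, threshold and single replicates.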

Additional observations from a re-analysis of the deposited data

How the results depend on the processing

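Of 264 log2 fold changes of member probe sets recomputed under the alternatives, 231 kept their direction and side of the threshold, 30 lost a call, 3 gained one and 0 reversed. Without the filter, 3 member genes (Mylk, Cnn1 and Myh11) and 8 member probe sets were lower, and 7 member genes and 17 member probe sets were higher. The member probe sets added by this setting all lay under 50 in both groups. With only probe sets free of type suffixes, 5 member probe sets were higher. With only probe sets free of repeated values, 9 were higher and 0 were lower, as were 0 member genes, because 0 Mylk probe sets were left. Over all genes that alternative called 1322 higher and 2691 lower, against 2797 and 5505 as reported, with 6975 genes tested. Against a 2-fold change, 4 member genes and 5 member probe sets were higher and 0 of each lower, and over all genes 555 were higher and 813 lower. Centring gave 4469 higher and 3642 lower, 55.1% of calls higher in place of 33.7%. No filter gave 4809 higher and 8367 lower. With the replicate block, 6 member genes were higher and 1 lower, and the call lost was that of Cnn3. Leaving out 1 replicate gave 5 to 7 member genes higher and 1 lower, and 10 to 13 member probe sets higher and 2 lower. The number of arrays and values near background limit the precision.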

Other observations

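Other cell type lists on the same arrays were mostly lower in TRAP RNA, while 23.2% of all genes were higher and 45.6% lower. Of 11 oligodendrocyte genes tested, 10 were lower, with a median log2 fold change of -3.03. Ermn, a cytoskeletal protein of myelin-forming cells, averaged 306 ± 83.1 in TRAP RNA against 5703 ± 791 in unbound RNA (SD, n = 3 each; 18.9-fold lower, limma adjusted p = 5.9e-05). Of 8 microglial genes 7 were lower (median -2.12), among them the purinergic receptor gene P2ry12 at 7.44 in TRAP RNA against 102 in unbound RNA (log2 -3.76, and -1.01 with values under 50 raised to 50). The exception, Tmem119, read 161 ± 37.9 in TRAP against 108 ± 15.1 in unbound RNA (SD, n = 3 each). It was not called (limma adjusted p = 0.057), but was called higher after centring and after quantile normalisation. Of 12 interneuron genes 9 were lower (median -1.50), and Pvalb, a calcium buffer, was 6.89-fold lower, while Sst, Npy and Cck were not called. Of 11 astrocyte genes 7 were lower and 2 higher (median -1.55). The water channel gene Aqp4 was 15.0-fold lower and the connexin gene Gjb6 5.75-fold higher.

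Vascular and ventricular lists went both ways, as did all genes, of which 23.2% were higher and 45.6% lower. Of 7 endothelial genes tested, 2 were higher and 3 lower (median 0.08). The other 8, Pecam1, Flt1, Kdr, Tek, Tie1, Cdh5, Emcn and Vwf, stayed under 50 in both groups. Itm2a, a membrane protein, averaged 4088 ± 171 in TRAP RNA against 467 ± 3.35 in unbound RNA (SD, n = 3 each; 8.74-fold higher, limma adjusted p = 6.3e-07), and Slco1c1, a thyroid hormone transporter, was lower by 5.94-fold. Abcb1a, a drug efflux transporter, was 3.79-fold higher. It read 37.6 in unbound RNA, and its log2 fold change was 1.51 in place of 1.92 with values under 50 raised to 50. The calls of Esam and Cldn5, junction proteins that were lower, were lost after centring. Of 5 striated muscle genes tested 1 was higher and 2 lower (median -0.91), and Tnnt2, a troponin, was 1.83-fold higher. The 2 lower were Myh7 and Pvalb, which also stand in the myosin and interneuron lists. A further 9 striated muscle genes stayed under 50 in both groups. Of 5 choroid plexus genes 3 were higher and 1 lower (median 1.41), and Kcnj13, a potassium channel, was higher by 15.2-fold. The median is the value of Kl, which read 50.6 in TRAP and 18.7 in unbound RNA. With values under 50 raised to 50 its log2 fold change was 0.12 and its call was lost. The summed choroid plexus list was 1161 to 1426 in TRAP RNA against 428, 345 and 3154 on unbound arrays 1 to 3. Unbound replicate 3 stood apart, where Ttr alone read 2886, against 159 and 76.3 on unbound replicates 1 and 2.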
